A study of Mus musculus with 57 samples.

Results

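The effect of the Sod1G86R genotype was measured in control cells of the mouse brain at 30 days, in 3 Sod1G86R and 4 wild-type libraries out of 57 libraries in the series. These 7 libraries were chosen by the labelled cell type and genotype and by the age in their titles, a plain number that is read here as days. The series covered corticospinal neurons (CSN), which project from the cortex into the spinal cord, and cells that the labels call only control cells, each in both genotypes at 30, 60, 90 and 105 days. RNA was amplified with SMART-Seq, a kit for small amounts of RNA, and sequenced. Sod1G86R animals carry a mutant form of superoxide dismutase 1 and are titled Tg, and wild-type animals carry no labelled allele. No treatment is labelled in either group. Strain, sex, the promoter of the transgene, the number of animals per library and the way the control cells were obtained are not given in the sources used here, so p-values measure the spread between these samples.

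Sod1 encodes the copper and zinc enzyme that turns superoxide into hydrogen peroxide and oxygen in the cytosol. Mutations in its human counterpart cause inherited forms of amyotrophic lateral sclerosis (ALS), in which motor neurons of the cortex and the spinal cord degenerate, and the mutant protein acts in neurons and in the glia around them. The series' title also names CREB3, a transcription factor held in the membrane of the endoplasmic reticulum (ER) that is cut free in the Golgi. Values below are normalised reads, given for Sod1G86R replicates 2, 3 and 4 and wild-type replicates 1, 3, 4 and 5 in this order, with mean ± SD over the libraries of a group. Differences are Sod1G86R minus wild type on the scale of log2(value + 34.6), which understates the change of low genes, and were tested with limma over 20944 genes with Benjamini-Hochberg adjustment. A gene passed at an adjusted p under 0.05.

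Reads of the transgene and of the endogenous gene are counted together under Sod1. Gm8566 is a processed pseudogene of Sod1 on chromosome 6. Over the whole Sod1 coding sequence 455 of 465 aligned bases were identical between them (97.85%), with a longest identical run of 122 bases, against reads of 50 bases.

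Reads counted under Sod1 separated the groups. Sod1 (ENSMUSG00000022982, chromosome 16, 90220754 to 90226329, plus strand) stood at 88382, 83432 and 56715 in Sod1G86R and 2921, 1866, 2384 and 3442 in wild type. Every Sod1G86R library lay far above every wild-type library, with means of 76177 ± 17035 and 2653 ± 679.9, a ratio of 28.7. The log2 difference was 4.83 (SE 0.33, 95% interval 4.15 to 5.52, adjusted p = 2.23e-10). Gm8566 stood at 479.7, 451.5 and 307.6 in Sod1G86R and 9.519, 20.01, 18.31 and 7.509 in wild type and passed as well (log2 difference 3.19, SE 0.46, adjusted p = 0.00155). Gm8566 was named after its values were seen. Its reads cannot be told apart from those of Sod1 where the sequences are identical over the whole read. Whether the reads counted under Gm8566 came from Sod1 was not tested. In CSN of the same age Sod1 stood at 109110 ± 17173 and 3330 ± 1182, and its genotype difference was not shown to differ between the cell types (control cells minus CSN -0.25, SE 0.43, adjusted p = 0.856).

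No other gene passed. The 2 genes that did are 0.00955% of the genes tested, and both were higher in Sod1G86R. Both passed in all 23 alternative analyses. The count was 4, 4 and 5 without Sod1G86R replicate 2, 3 or 4 and 4 without wild-type replicate 4, and it reached 24 with array weights, 35 with all 57 libraries in the fit and 41 with DESeq2 on recovered reads, against 2 with edgeR. At an unadjusted p under 0.05 stood 1100 genes (5.25%), of which 478 (2.28%) were higher and 622 (2.97%) lower. All 3 Sod1G86R libraries lay below all 4 wild-type libraries in 1100 genes (5.25%) and above them in 617 (2.95%). The median difference over all genes was 0.02, with 48.6% of genes below 0 and 51.4% above. Among the 10353 genes with a mean of at least 346, 60.5% lay below 0, with a median of -0.13, and the groups did not overlap in 8.47% of genes on the lower and 2.33% on the higher side. The 95% intervals of this fit were wide, with a median half-width of 0.90. In 29.0% of genes the interval lay within 2-fold on either side. These intervals are not adjusted for the number of genes tested. Estimates of more than 2-fold stood in 1220 genes (5.83%), and after adjustment only Sod1 and Gm8566 passed. The missing calls do not show that the genotypes were alike.

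**Figure D1:**
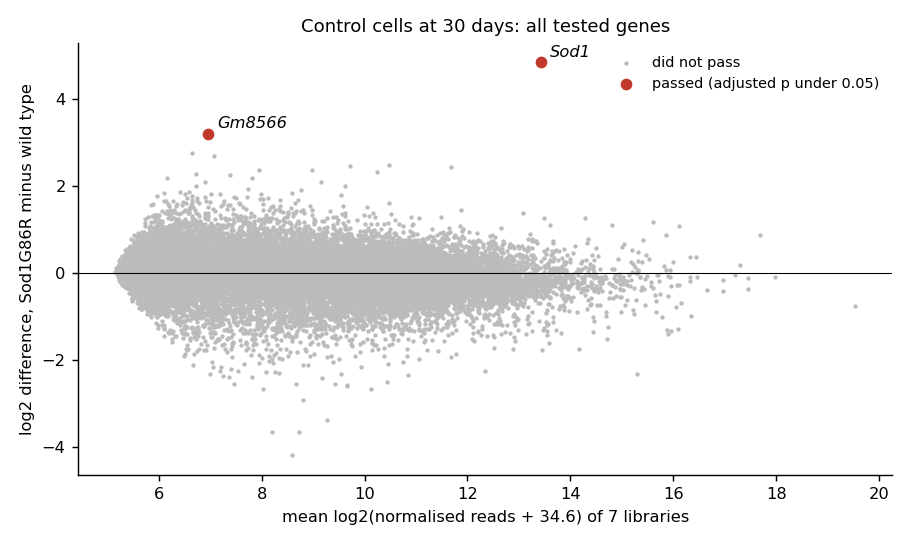
Each point is 1 of the 20944 genes tested in control cells at 30 days, with its mean log2 level over the 7 libraries on the x axis and its log2 difference (Sod1G86R minus wild type) on the y axis. Sod1 (4.83) and Gm8566 (3.19), in red, were the 2 genes that passed.

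The libraries held 30.6 to 44.3 M recovered reads, and correlations of log2 levels between replicates of a group were 0.918 to 0.970. None of 8 library measures differed in exact two-sided permutation tests, which with 35 arrangements cannot go below p = 0.0571. The lowest p, 0.114 (0.457 adjusted over the 8), was that of the mean log2 level of glial markers, 11.99 ± 0.58 in Sod1G86R and 12.63 ± 0.26 in wild type. Sod1G86R replicate 3 had the lowest glial level (11.33) and the highest share of mitochondrially encoded reads, 2.46% against 1.01% and 1.47% in the other Sod1G86R libraries and 0.978% to 1.12% in wild type. Of 20 markers of deep layers and CSN, 14 lay lower in all 7 control-cell libraries than in all 7 CSN libraries of this age and 1 lay higher, while of 16 upper-layer markers 0 lay lower and 10 higher. Among these, Bcl11b, a transcription factor that specifies corticospinal neurons, stood at 213.9 ± 65.02 and 132.3 ± 48.44, against 8062 ± 2392 and 8736 ± 938.1 in CSN. Calb1, a calcium buffer of upper-layer neurons, stood at 24577 ± 12878 and 24733 ± 8543, against 355.9 ± 158.6 and 241.8 ± 140.8 in CSN. Of the oligodendrocyte, astrocyte and microglia markers, 0 were at 0 in all 7 libraries.

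Creb3 and its relatives did not pass. Creb3 (ENSMUSG00000028466, chromosome 4, 43562332 to 43567060, plus strand) stood at 5033, 4227 and 6267 in Sod1G86R and 6261, 7022, 7428 and 6956 in wild type. The highest Sod1G86R library reached the lowest wild-type library, and the log2 difference was -0.43 (SE 0.30, 95% interval -1.05 to 0.19, adjusted p = 0.98). That interval holds a fall of more than 2-fold as well as a small rise. In CSN at 30 days the difference was 0.55, and the test between the cell types gave -0.98 (SE 0.40, adjusted p = 0.474). Of 10 genes of the CREB3 family and its partners, 6 lay below 0 and 4 above, with a median of -0.06 that turned to 0.08 under quantile normalisation and ranged from -0.23 to 0.04 when 1 library was left out. Arf4, a small GTPase of the Golgi whose gene CREB3 is known to induce, was the member with the smallest p, at 11278, 8660 and 6681 in Sod1G86R and 15838, 15504, 22867 and 16607 in wild type. All Sod1G86R libraries lay below all wild-type libraries, with a log2 difference of -1.01 (SE 0.33, adjusted p = 0.721). The relatives Creb3l2 (-0.35) and Creb3l4 (0.78) had adjusted p-values of 0.98 and 0.971.

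Genes with the smallest p-values after Sod1 and Gm8566 follow, among genes with an established symbol and a mean of at least 346 in the group where they were higher, 4 higher and 5 lower in Sod1G86R, and none of them passed. On the higher side, Clec7a, the receptor Dectin-1 of microglia and macrophages, stood at 1021, 61.22 and 548.2 in Sod1G86R and 55.39, 55.86, 8.138 and 4.693 in wild type (log2 difference 2.68, SE 0.54, adjusted p = 0.0793). It was uneven within Sod1G86R, and its lowest library, replicate 3, lay close to the wild-type range. Fkbp5, a co-chaperone of the glucocorticoid receptor that glucocorticoids induce, was more even, at 1523, 1508 and 830.8 in Sod1G86R and 152.3, 460.2, 161.7 and 176.5 in wild type (log2 difference 2.36, SE 0.57, adjusted p = 0.337). Acer2, a ceramidase of the Golgi, stood at 2383, 1943 and 1057 in Sod1G86R and 424.0, 644.4, 190.2 and 479.7 in wild type (log2 difference 1.99, SE 0.52, adjusted p = 0.436). Nos1ap, an adaptor of neuronal nitric oxide synthase, stood at 2105, 2081 and 1674 in Sod1G86R and 697.5, 1149, 578.8 and 590.4 in wild type (log2 difference 1.38, SE 0.37, adjusted p = 0.466). In each of these 4 genes every Sod1G86R library exceeded every wild-type library.

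On the lower side, Cnn3, an actin-binding calponin, stood at 1703, 1700 and 3195 in Sod1G86R and 7205, 9146, 15867 and 10436 in wild type (log2 difference -2.26, SE 0.43, adjusted p = 0.0566). Abcd3, a transporter of the peroxisome membrane, stood at 822.4, 541.4 and 443.4 in Sod1G86R and 3147, 2576, 1604 and 2161 in wild type (log2 difference -1.92, SE 0.39, adjusted p = 0.0793). Both genes lie in 1 region of chromosome 3 that is described next. Sdc2, a heparan sulfate proteoglycan of the cell surface, stood at 1959, 1044 and 895.7 in Sod1G86R and 3533, 2826, 5034 and 3464 in wild type (log2 difference -1.54, SE 0.33, adjusted p = 0.152). Serpinb1a, an inhibitor of neutrophil proteases, stood at 125.6, 805.4 and 407.4 in Sod1G86R and 4074, 2503, 2221 and 1567 in wild type (log2 difference -2.67, SE 0.62, adjusted p = 0.337). Dpy19l1, which adds mannose to proteins, stood at 3087, 4183 and 5504 in Sod1G86R and 12315, 10931, 11997 and 8586 in wild type (log2 difference -1.38, SE 0.32, adjusted p = 0.337). The groups did not overlap in any of these 5 genes. Cnn3 passed in 7 of the alternative analyses, Clec7a in 5, and Abcd3, Sdc2 and Dpy19l1 in 3 each. Fkbp5 and Serpinb1a passed in 2 each, and Acer2 and Nos1ap in 1 each.

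**Figure D2:**
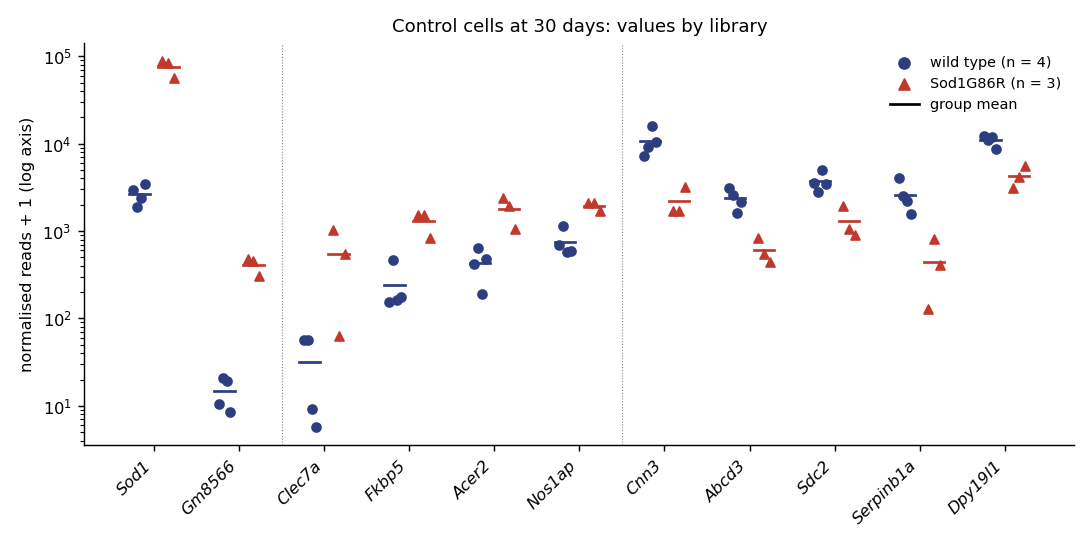
Normalised reads plus 1 on a log axis for Sod1, Gm8566 and 9 of the genes of that level with the smallest p-values that did not pass, 4 higher and 5 lower in Sod1G86R, with 1 point per library and a bar at the group mean. Sod1 lay between 56715 and 88382 in Sod1G86R and between 1866 and 3442 in wild type, and in each of the 11 genes the groups do not overlap.

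A stretch of chromosome 3, from the start of Gm26871 to the end of Camk2d (GRCm38 118430324 to 126846326, 8.416 Mb), held a run of low values. The stretch was known from earlier results of these data that included these libraries, so its low values here are a description with no independent support. Of its 59 genes tested, 22 had a mean of at least 346, and 21 of these 22 lay below 0, with a median of -0.95. Over all 59 the median was -0.49, 47 lay below 0, and in 15 (25.4%) all Sod1G86R libraries lay below all wild-type libraries, against 5.25% of all genes. In 12 of the 22 (54.5%) all Sod1G86R libraries lay below all wild-type libraries, against 8.47% of all genes of that level, and 12 had an unadjusted p under 0.05, against 6.29%. None passed. The medians of the genes of that level in the 5 Mb before and after were -0.18 and -0.17, and over the rest of chromosome 3 the median was -0.14. In windows of 22 neighbouring genes of that level across the genome, the lowest median away from the stretch was -0.54, on chromosome 11, and the highest was 0.69, on chromosome 7.

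Besides Cnn3 and Abcd3, the members with the smallest p were 1810037I17Rik, Gclm, Ptbp2, Alg14, Rwdd3 and Sec24d. The transcript 1810037I17Rik stood at 1571, 3714 and 2308 in Sod1G86R and 7219, 4911, 9182 and 7907 in wild type (log2 difference -1.57). Gclm, the regulatory subunit of the enzyme that starts glutathione synthesis, stood at 1348, 1190 and 1350 in Sod1G86R and 3155, 3180, 2724 and 3050 in wild type (log2 difference -1.20). Both groups were tight in Gclm, and no library of either group came near the other. Ptbp2, a splicing regulator of neurons, stood at 2375, 2570 and 1204 in Sod1G86R and 4484, 4905, 3768 and 4839 in wild type (log2 difference -1.19). Sec24d, a cargo adaptor of the COPII coat that buds vesicles from the ER, stood at 128.5, 353.9 and 89.87 in Sod1G86R and 540.0, 757.0, 956.3 and 511.6 in wild type (log2 difference -1.82). Alg14, a subunit of an enzyme of N-glycan synthesis, and Rwdd3, which promotes the attachment of SUMO, differed by -1.16 and -1.75. Adjusted p-values of these 6 genes were 0.337 to 0.774, and in all 6 the groups did not overlap. The stretch also holds Ugt8a, an enzyme of myelin lipid synthesis that is counted below among the oligodendrocyte markers.

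The earlier results that showed the stretch came from CSN over all ages and from control cells. The values of other ages and of CSN are therefore no independent support either. The same 22 genes had medians of -0.83 at 60 days, -0.76 at 90 days and -1.05 at 105 days, with 18, 22 and 20 of them below 0. The medians over all genes of that level were -0.35, 0.05 and 0.01 at these ages. At 60 days, with 3 Sod1G86R and 2 wild-type libraries, 6 of the 22 passed, against 221 of 10353 genes of that level. At 90 and 105 days 0 of the 22 passed. Over all 59 genes of the stretch the medians were -0.04, -0.47 and -0.55, with 31, 55 and 49 below 0, and at 60 days this was close to the median of all genes tested (-0.05). In CSN at 30 days the median was -0.86, with all 22 below 0, and over all genes of that level it was 0.10. Neither the difference between the cell types nor that between 30 days and the later ages passed for any gene of the stretch, with 2 and 0 of the 22 at an unadjusted p under 0.05. Fnbp1l, which links membranes to actin assembly and lies in the stretch, passed in CSN (-1.55, adjusted p = 9.24e-05) and did not in control cells (-0.93, adjusted p = 0.821), and the test between them gave 0.62 (SE 0.38, adjusted p = 0.596).

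**Figure D3:**
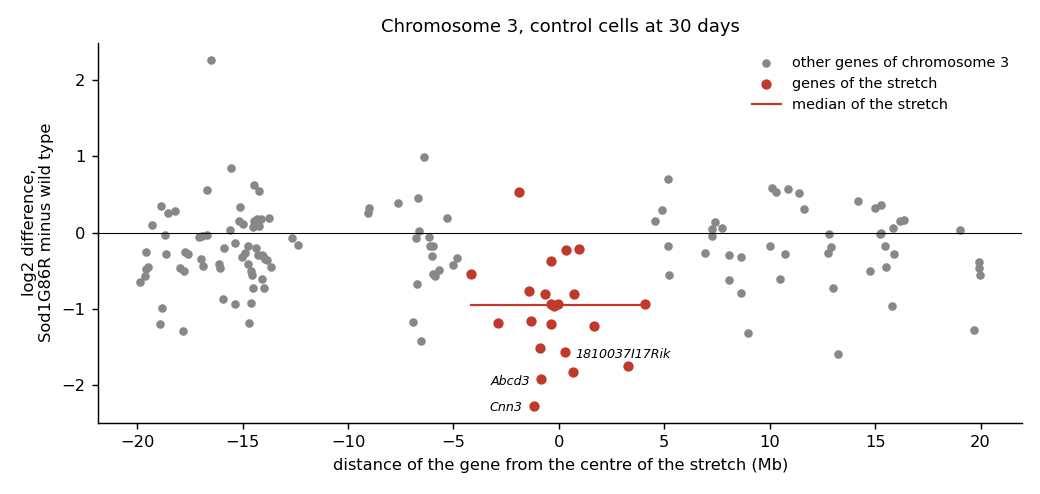
Log2 difference (Sod1G86R minus wild type) in control cells at 30 days for genes with a mean of at least 346 within 20 Mb of the centre of the stretch, against their distance from it in Mb. Red points are the 22 genes of the stretch, of which 21 lie below 0, and the red line is their median of -0.95.

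Most markers of oligodendrocytes, their precursors and astrocytes lay below 0, and none of them passed. All 15 oligodendrocyte markers lay below 0, with a median of -0.99. The median was 0.02 over all genes and -0.13 over genes with a mean of at least 346. In 7 of the markers (46.7%) every Sod1G86R library lay below every wild-type library. This held for 5.25% of all genes and 8.47% of those with a mean of at least 346. Summed over the list, oligodendrocyte markers stood at 518000, 868000 and 1420000 normalised reads in Sod1G86R and at 1960000, 1560000, 1470000 and 1100000 in wild type. The summed ranges overlap, since Sod1G86R replicate 4 exceeded wild-type replicate 5. Mbp, which encodes the basic protein of myelin, stood at 50262, 15708 and 56118 in Sod1G86R and 143417, 85395, 77050 and 65636 in wild type (log2 difference -1.32, adjusted p = 0.971). Aspa, the enzyme that splits N-acetylaspartate in oligodendrocytes, stood at 2490, 13917 and 14908 in Sod1G86R and 21335, 21709, 17728 and 20082 in wild type (log2 difference -1.32, adjusted p = 0.777). Ermn, a late myelin protein, stood at 3823, 8135 and 18292 in Sod1G86R and 29263, 20505, 19730 and 18397 in wild type (log2 difference -1.38). In Aspa and Ermn no library of 1 genotype reached the other, and Sod1G86R replicate 2 was the lowest library, while in Mbp it was replicate 3. When 1 library was left out, the difference ranged from -1.77 to -0.48 for Aspa and from -1.95 to -0.82 for Ermn. Ugt8a, which lies in the stretch on chromosome 3, had a log2 difference of -1.75 (adjusted p = 0.839).

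Of 10 markers of oligodendrocyte precursors, 9 lay below 0, with a median of -1.17. The groups did not overlap in 5 of them (50%), all lower, against 5.25% of all genes and 8.47% of those with a mean of at least 346. Their sums were 16100, 6110 and 18900 in Sod1G86R and 43500, 29300, 35100 and 27800 in wild type, with no overlap. Tmem100, a membrane protein of BMP signalling, stood at 1195, 933.6 and 2180 in Sod1G86R and 2173, 3441, 6741 and 5118 in wild type (log2 difference -1.55, adjusted p = 0.588). C1ql1, a secreted C1q-like protein, stood at 779.5, 87.05 and 677.0 in Sod1G86R and 1476, 1503, 3319 and 1460 in wild type (log2 difference -2.16, SE 1.10), where replicate 3 is far below the other 2. The sialidase Neu4 (-1.98) and the lineage factor Olig1 (-1.31) had adjusted p-values of 0.959 and 0.971.

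Astrocyte markers lay below 0 in 14 of 15 genes, with a median of -0.89, and in 1 of them (6.67%) the groups did not overlap, a share near the 5.25% of all genes. That gene was Glul, the glutamine synthetase of astrocytes, at 4328, 5266 and 6148 in Sod1G86R and 9737, 9881, 9755 and 15518 in wild type (log2 difference -1.08, adjusted p = 0.898). The water channel Aqp4 stood at 2256, 392.2 and 1827 in Sod1G86R and 4694, 5429, 1502 and 3195 in wild type and overlapped (log2 difference -1.46). Aldh1l1, an enzyme of folate metabolism, and the calcium-binding S100b differed by -1.29 and -1.14, with adjusted p-values of 0.898 and 0.948. The summed astrocyte list stood at 97000 to 138000 in Sod1G86R and 100000 to 283000 in wild type, and the median of the list was -0.52 without wild-type replicate 3 and -0.29 without wild-type replicate 5. In such bulk libraries fewer cells of a type and less RNA per cell cannot be told apart. The mean glial level of a library is taken over the oligodendrocyte, astrocyte and microglia markers themselves. The precursor list shares Olig1, Olig2 and Sox10 with them. With this level as a covariate, the medians of the oligodendrocyte, precursor and astrocyte lists were -0.22, -0.19 and -0.25. Smaller differences are built into this adjustment, so nothing is concluded from them. With the mitochondrial share as a covariate the medians were -0.54, -0.77 and -0.51.

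Microglia markers gave no common direction. Of 17 genes 12 lay below 0, with a median of -0.29, and in none were the groups apart. Trem2, a lipid receptor of microglia, stood at 1950, 623.7 and 3336 in Sod1G86R and 1832, 1534, 2975 and 3369 in wild type (log2 difference -0.51, SE 0.50). Tmem119, a surface protein of resident microglia, stood at 3215, 464.9 and 4631 in Sod1G86R and 2499, 2063, 3218 and 5005 in wild type (log2 difference -0.64, SE 0.69). Replicate 3 was the lowest of the 7 libraries in both genes, and without it the median of the list was 0.47 (0.01 without wild-type replicate 5) and the differences of Trem2 and Tmem119 were 0.14 and 0.35. The purinergic receptor-like Gpr34 (-0.52) turned to 0.05 without that library, while the transcription factor Sall1 stood at -0.41. Adjusted p-values of these 4 genes were 0.98 in each case.

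Genes that microglia raise around damaged tissue, the disease-associated set, numbered 18, with 8 above 0 and 10 below and a median of -0.15 that turned to 0.04 under quantile normalisation and to 0.22 without Sod1G86R replicate 3. Besides Clec7a, Spp1 (osteopontin) stood at 350.3, 297.5 and 2.996 in Sod1G86R and 1.731, 0.8337, 6.104 and 2.816 in wild type, high in 2 of 3 Sod1G86R libraries and within a few reads of 0 in the third and in wild type (adjusted p = 0.777). The tetraspanins Cd63 and Cd9 were lower in every Sod1G86R library, at 2740, 3693 and 4358 against 6615, 5230, 7230 and 8903 for Cd63, with log2 differences of -0.95 and -1.02 and adjusted p-values of 0.924 and 0.948.

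**Figure D4:**
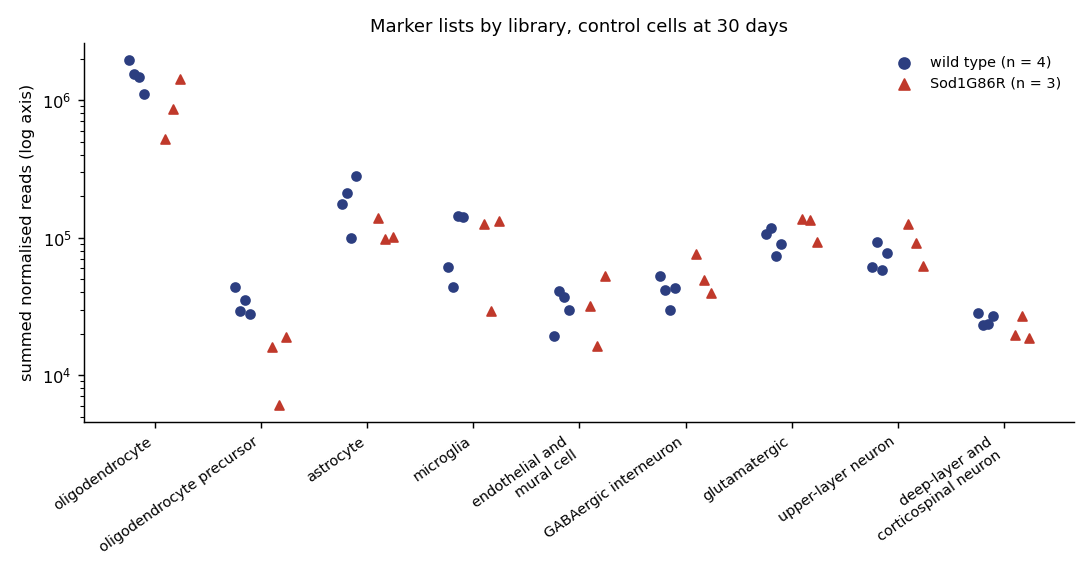
Summed normalised reads (log axis) of 9 marker lists in each of the 7 libraries. Oligodendrocyte precursor markers do not overlap between the genotypes (6110 to 18900 in Sod1G86R, 27800 to 43500 in wild type), and the other 8 lists do.

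Markers of inhibitory neurons lay mostly above 0. Of 18 GABAergic genes 16 were above 0, with a median of 0.72. In 4 (22.2%) every Sod1G86R library exceeded every wild-type library, against 2.95% of all genes and 2.33% of those with a mean of at least 346. Gad1, which makes the transmitter GABA from glutamate, stood at 7228, 2851 and 1304 in Sod1G86R and 800.5, 1308, 648.0 and 146.4 in wild type (log2 difference 2.32, SE 0.88, adjusted p = 0.866). Its partner Gad2 stood at 5094, 1908 and 1058 in Sod1G86R and 512.3, 1686, 161.7 and 110.8 in wild type (log2 difference 2.45, SE 0.88). In both genes the spread within each group was large, and for Gad2 and Gad1 the highest wild-type library, replicate 3, reached the lowest Sod1G86R library. Slc32a1, which loads GABA into vesicles, stood at 43.78, 63.13 and 39.94 in Sod1G86R and 27.69, 18.34, 4.069 and 1.877 in wild type, a low level. Summed over the list, GABAergic markers stood at 75600, 49100 and 39400 in Sod1G86R and at 52800, 41400, 29700 and 43100 in wild type, which overlap. The median of the list was 0.40 without wild-type replicate 5 and 0.32 with a pseudocount 4 times as large. Pan-neuronal genes had a median of 0.14, glutamatergic markers 0.27, upper-layer markers 0.12 and deep-layer markers 0.18 (below 0 without Sod1G86R replicate 3 in all but the glutamatergic list), and in none of these lists did more than 1 gene separate the groups.

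Voltage-gated ion channels, which set the excitability of neurons, were above 0 in 20 of 24 genes, with a median of 0.44. In 7 (29.2%) every Sod1G86R library exceeded every wild-type library, against 2.95% of all genes and 2.33% of those with a mean of at least 346. Without Sod1G86R replicate 3 the median was 0.28. The largest difference of the list went the other way, at -1.41 in 1 of the 4 genes below 0. Kcna1, a potassium channel of axons, stood at 1699, 2244 and 1492 in Sod1G86R and 899.1, 1036, 716.2 and 367.0 in wild type (log2 difference 1.30, SE 0.35, adjusted p = 0.488). Kcnc1, a fast potassium channel of interneurons that is also counted among the GABAergic markers, stood at 1561, 2247 and 1319 in Sod1G86R and 774.5, 1235, 855.5 and 582.0 in wild type (log2 difference 0.97). The groups are apart in both, by a narrow margin in Kcnc1. The calcium-activated potassium channel Kcnma1 differed by 0.998 (adjusted p = 0.884). With the glial level of each library as a covariate the median of the channels was 0.27.

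Cholesterol synthesis, which in the brain serves myelin to a large part, had 14 of 18 genes below 0, with a median of -0.53. In 4 (22.2%) the groups were apart, all lower, against 5.25% of all genes and 8.47% of those with a mean of at least 346. Hmgcs1, an early enzyme of the pathway, stood at 7481, 4299 and 9444 in Sod1G86R and 19528, 10938, 10028 and 8587 in wild type (log2 difference -0.79, adjusted p = 0.948). The late enzymes Sc5d (-0.80), Nsdhl (-0.96) and Msmo1 (-0.91) had adjusted p-values of 0.948, 0.948 and 0.952. The median of the list was -0.35 without wild-type replicate 1, -0.82 without Sod1G86R replicate 4 and -0.22 and -0.31 with the glial level and the mitochondrial share as covariates.

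Antioxidant genes and targets of NRF2, the factor that answers oxidative stress, had 19 of 22 genes below 0, with a median of -0.37. In 5 (22.7%) the groups were apart, all lower, against 5.25% of all genes and 8.47% of those with a mean of at least 346. The median was -0.20 without Sod1G86R replicate 3 and -0.17 adjusted for the mitochondrial share. Gclm, in the stretch on chromosome 3, had the smallest p of the list (adjusted p = 0.436). Prdx6, a peroxiredoxin that is high in astrocytes, stood at 9269, 6465 and 7362 in Sod1G86R and 19216, 15409, 12521 and 23797 in wild type (log2 difference -1.18, adjusted p = 0.883). Hmox1, the heme oxygenase that NRF2 induces, went the other way, at 2487, 766.2 and 356.5 in Sod1G86R and 103.8, 465.2, 76.30 and 464.6 in wild type (log2 difference 1.89, adjusted p = 0.948), with overlap between the groups. Prdx1 differed by -0.73 (adjusted p = 0.949).

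Trafficking from the ER to the Golgi had 19 of 27 genes below 0, with a median of -0.26. In 6 (22.2%), among them Arf4 and Sec24d, the groups were apart, all lower. All Sod1G86R libraries lay below wild type in 5.25% of all genes and 8.47% of those with a mean of at least 346. The median of the list was -0.43, -0.15 and -0.12 without Sod1G86R replicate 2, 3 or 4, and adjusted for the mitochondrial share it was within 0.001 of 0. Bet1, a SNARE protein of this step, stood at 2247, 4436 and 3703 in Sod1G86R and 5957, 5006, 6489 and 6756 in wild type (log2 difference -0.85, adjusted p = 0.814). Kdelr2, which returns ER proteins from the Golgi, differed by -0.56 (adjusted p = 0.971). Of 26 genes that answer unfolded proteins in the ER, 20 lay below 0, with a median of -0.24, and of 20 heat shock and chaperone genes 16 did, with a median of -0.30. Genes with a mean of at least 346 had a median of -0.13, with 60.5% below 0. The median of the unfolded protein list was -0.45 and -0.03 without Sod1G86R replicate 2 or 3. Adjusted for the mitochondrial share it was no longer below 0 (0.00435). That of the heat shock list was -0.49 without Sod1G86R replicate 2 and -0.11 with that adjustment.

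Of 31 other ALS-linked genes, 29 were tested, with 16 below 0 and 13 above and a median of -0.10 that turned to 0.06 under quantile normalisation. Hnrnpa1, which binds RNA in splicing and stress granules, stood at 1460, 1227 and 1173 in Sod1G86R and 2091, 2054, 2512 and 2583 in wild type (log2 difference -0.83, SE 0.24, adjusted p = 0.603). Hnrnpa2b1, a protein of the same family, stood at 11942, 10634 and 10430 in Sod1G86R and 18875, 15757, 20236 and 19271 in wild type (log2 difference -0.75, SE 0.24, adjusted p = 0.706). Both had tight groups that did not overlap. These 2 (6.90%) were the genes of the list that lay wholly below wild type, a share near the 5.25% of all genes, and 1 lay wholly above. The median of the list was 0.08 without Sod1G86R replicate 4. Kif5a, a motor of axonal transport, differed by 0.67 (adjusted p = 0.971). Nuclear genes of oxidative phosphorylation lay below 0 in 47 of 48 cases by a small amount, a median of -0.18. Genes with a mean of at least 346 had a median of -0.13, with 60.5% below 0. The median of the list was -0.01 under quantile normalisation and 0.03 without Sod1G86R replicate 4. All 11 tested genes of the mitochondrial genome lay above 0, with a median of 0.25, beside the high mitochondrial share of Sod1G86R replicate 3, without which their median was -0.09.

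**Figure D5:**
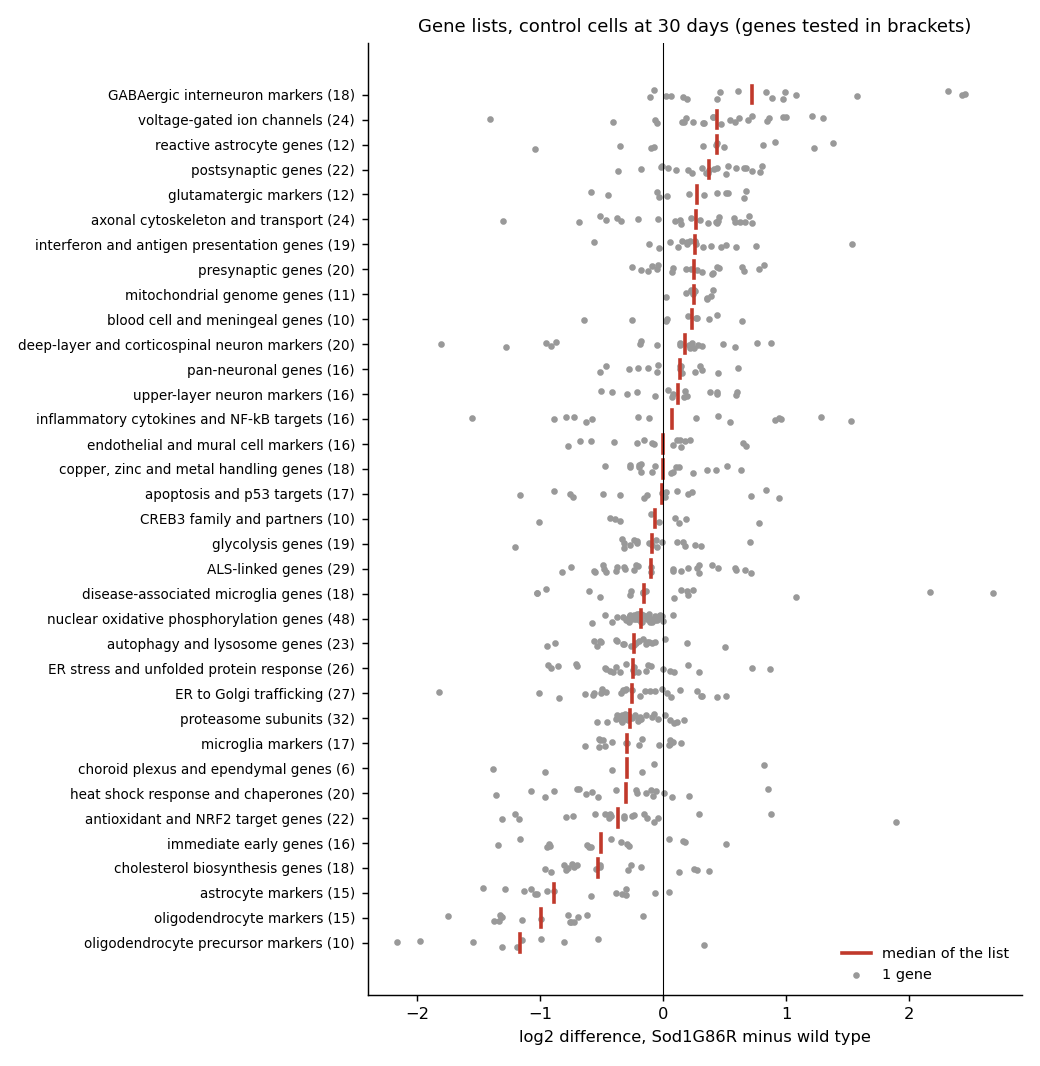
Log2 difference (Sod1G86R minus wild type) of every tested gene of 35 lists, with 1 grey point per gene and a red bar at the median of the list. Medians run from -1.17 for oligodendrocyte precursor markers to 0.72 for GABAergic markers, and none of these genes passed.

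Whether the genotype effect in control cells differed from that in CSN of the same age was tested directly. No gene of 22032 passed in limma (0%), with 2054 (9.32%) at an unadjusted p under 0.05, and edgeR on recovered reads called 0 as well. The count was 8, 2 and 5 without Sod1G86R control-cell replicate 2, 3 or 4, and 1 without wild-type control-cell replicate 4 or Sod1G86R CSN replicate 4. In CSN themselves 3 of 19093 genes passed (0.0157%), Sod1, Gm8566 and Fnbp1l, and 13.5% had an unadjusted p under 0.05. Among the smallest p-values of the difference, none of which passed, were those of Clec7a, Rxylt1, Mrps6 and Sccpdh. Sccpdh, a protein of lipid droplets and membranes, stood at 2500, 3772 and 3527 in Sod1G86R and 10547, 6915, 10590 and 8431 in wild type in control cells (log2 difference -1.47), and its difference was 0.58 in CSN (control cells minus CSN -2.05, SE 0.49, adjusted p = 0.295). Mrps6, of the small mitochondrial ribosomal subunit, stood at 758.6, 639.9 and 661.1 in Sod1G86R and 1492, 1456, 1557 and 2129 in wild type (log2 difference -1.22; 0.38 in CSN), and Rxylt1, an enzyme of dystroglycan glycosylation, differed by -0.70 in control cells and 0.83 in CSN. Of the 7 control-cell libraries 6 share their genotype and number with a CSN library of this age, and the fit took them as independent.

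The effect at 30 days was also set against the mean of the effects at 60, 90 and 105 days in control cells. None of 20944 genes passed in limma (0%), with 825 (3.94%) at an unadjusted p under 0.05, and edgeR called 0. Without Sod1G86R replicate 2, 3 or 4 of 30 days the count was 1, 2 and 1. At the later ages 293 (1.40%), 2 (0.00955%) and 2 (0.00955%) genes passed, and 24.1%, 2.81% and 4.45% had an unadjusted p under 0.05. Among the smallest p-values of this difference were those of Ccl24, Fkbp5, Sccpdh and Col19a1. Ccl24, a chemokine that attracts eosinophils, stood at 42.83, 146.4 and 263.6 in Sod1G86R and 1714, 945.4, 1013 and 4447 in wild type (log2 difference -3.39, SE 1.13), against 3.50, 0.17 and 2.13 at 60, 90 and 105 days (30 days minus later ages -5.32, adjusted p = 0.961). Fkbp5, at 2.36 here, stood at -0.41, 0.07 and -0.08 later (adjusted p of the difference = 0.9997). Col19a1, a collagen made by some interneurons, differed by 1.27 at 30 days and 0.00, -0.41 and -1.13 later. The medians of the oligodendrocyte, precursor and astrocyte lists were -1.28, -2.60 and -2.02 at 60 days, 0.14, 0.03 and 0.08 at 90 days and 0.23, 0.06 and -0.15 at 105 days. Those of the GABAergic list were 0.70, 0.46 and 0.51, so that list lay above 0 at all 4 ages, with no test of the list.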

How the data were processed

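RNA of 57 libraries was read as paired reads of 50 bases, and 7 control-cell libraries of 30 days are the subject here.
Per the series' design text, STAR 2.7.0 mapped the reads onto GRCm38 and gave counts for Ensembl 87 genes, while edgeR and mm10 appear, with no role, in the submitters' processing notes.
The deposited values are a signal that the authors call normalised counts, and their method of normalisation is not stated in the labels.
The table holds 45337 genes, of which 44987 carry a symbol in GENCODE M21 and 350 do not.
All values (100%) were whole multiples of 1 step per library within 0.001, and division by that step gave the recovered reads (22.2 to 64.2 M per library over the series).
The labels name no molecular identifiers, so reads may include PCR copies, and the kit does not mark strand, so overlapping and antisense genes cannot be told apart.

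Genes at or above 34.6 (1 ppm of the median column total) in at least 3 libraries were kept, and limma 3.58.1 (R 4.3.3) was run on log2(value + 34.6), with trend and robust settings and a mean for each of the 8 control-cell groups (28 libraries).
The difference between cell types was fitted over all 57 libraries.
Benjamini-Hochberg adjustment covered all genes tested, with a threshold of 0.05.
Library measures were compared with exact permutation tests in scipy 1.17.1, and the TEC gene share, an unclassified biotype of the annotation, was added after values were seen.
The alternatives were other pseudocounts, filters and scalings, array weights, covariates, other sets of libraries, leaving out each library, a replicate block, and the count models of edgeR 4.0.16 and DESeq2 1.42.0 run on the recovered reads.
The code was tested on simulated data first.

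The libraries, the gene lists and the stretch were chosen with earlier results of these data known, the 12 lists described gene by gene were picked after the values of all lists had been seen, and no list was tested as a set.
Named were Sod1 and Creb3, the 5 smallest p-values in each direction reaching a mean of 346 in 1 genotype, with no predicted, clone or Riken name, up to 4 genes with the smallest p of each list described, 8 of the stretch and 5 for each difference.
Gm8566 stands outside this rule. Some genes that the rule takes, and the sequences compared, are not reported here.
Gene positions and sequences are those of GENCODE M21 on GRCm38.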

Additional observations from a re-analysis of the deposited data

Results flagged for a closer look

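In 7 of 74 groups of 4 wild-type values examined, 1 library stood apart from the other 3. Its gap to its neighbour takes more of the range of the group than the critical value of Dixon's test allows. That value is set so that chance gives this in about 1 of 20 groups of independent, normally distributed values. The 74 groups come from the same 4 libraries and gene values were not logged, so the count is not set against that rate.
For Fkbp5 the library was wild-type replicate 3 (460.2 normalised reads, ratio 0.922), for Kcnma1 replicate 3 (6437, ratio 0.833), for Sc5d replicate 1 (4507, ratio 0.836), for C1ql1 replicate 4 (3319, ratio 0.977), for Arf4 replicate 4 (22867, ratio 0.850), for Glul replicate 5 (15518, ratio 0.975) and for Mrps6 replicate 5 (2129, ratio 0.850).
In each of these the library was the highest of its group.
It lay toward the Sod1G86R values for Fkbp5 and Kcnma1 and away from them for the other 5 genes.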

How the results depend on the processing

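The count of genes that passed at 30 days was 2, and it was 6 with a pseudocount 4 times as large, 4 with no filter, 24 with array weights, 5 with only the 7 libraries of 30 days, 35 with all 57 libraries and 41 with DESeq2; leaving out 1 library gave 2 to 5. With a replicate block the count was 5 (consensus correlation 0.0486); the numbers do not pair the samples, since the genotypes share only 2 of them, with correlations of deviations of -0.039 and 0.130. The difference between cell types gave 0 to 8 genes when 1 library was left out and 0 with a block by genotype, age and replicate number, and the difference between ages gave 0 to 2, 1 with no filter, 1 with quantile normalisation and 0 with the block; the causes were not tested. With the glial covariate, which is built from these and the other glial markers, Trem2, Tmem119 and Gpr34 turned to 0.16, 0.40 and 0.15. Tmem119 turned to 0.10 with the mitochondrial share. Leaving out 1 library gave -1.03 to 0.14 for Trem2, -1.26 to 0.35 for Tmem119 and -1.17 to 0.050 for Gpr34. Each was highest without Sod1G86R replicate 3. The difference in the share of the 50 highest genes turned from -0.29 to 0.85 percentage points without Sod1G86R replicate 2 (lowest -1.19), and that in the pan-neuronal level from 0.05 to below 0 without Sod1G86R replicate 2 or 3 or wild-type replicate 4 (-0.11 to 0.33 over the 7 libraries). The median of the stretch was -1.19 to -0.81 over all alternatives. Read depth was not varied.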

Other observations

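Because Fkbp5 was among the smallest p-values, 20 genes that glucocorticoids are known to regulate were read as a further list, chosen after that value had been seen. Of the 20, 12 lay above 0 and 8 below, with a median of 0.23. In 4 (20%) every Sod1G86R library exceeded every wild-type library, against 2.95% of all genes and 2.33% of those with a mean of at least 346. Fkbp5, which prompted the list, is counted among the 20 and among these 4. Part of that share was therefore fixed by the choice of the list. None passed. Zbtb16, a zinc finger transcription factor, stood at 1109, 669.6 and 508.3 in Sod1G86R and 198.2, 305.1, 239.1 and 142.7 in wild type (log2 difference 1.61, SE 0.55). The clock gene Per1 stood at 1345, 1957 and 1804 in Sod1G86R and 989.1, 540.2, 521.9 and 614.8 in wild type (log2 difference 1.34, SE 0.45). Plin4, a coat protein of lipid droplets with the smallest p of the list, was low, at 48.54, 158.8 and 119.8 in Sod1G86R and 6.923, 5.002, 22.38 and 15.96 in wild type (log2 difference 1.54, SE 0.37, adjusted p = 0.337 in limma), and it passed with array weights and with all 57 libraries in the fit. Klf9, a transcription factor, stood at 5719, 5196 and 2579 in Sod1G86R and 2378, 3468, 2203 and 2098 in wild type, which overlap (log2 difference 0.77, SE 0.35). The median of the list was 0.60 with the glial level as a covariate and 0.56 adjusted for the mitochondrial share. In control cells it was -0.44, 0.12 and -0.05 at 60, 90 and 105 days.

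Cytosolic ribosomal protein genes, also added after values were seen, lay below 0 in 77 of 85 tested, with a median of -0.18 (-0.10 under quantile normalisation). Genes with a mean of at least 346 had a median of -0.13, with 60.5% below 0. The groups did not overlap in 3 of the ribosomal genes (3.53%), all lower, against 5.25% of all genes. Across the 10353 genes with a mean of at least 346, the differences at 30 days had a Spearman correlation of -0.14 with those in CSN at 30 days (over 10346 genes) and of 0.38, -0.16 and -0.10 with those in control cells at 60, 90 and 105 days. Genes are not independent replicates, the glial lists were low at both 30 and 60 days, and most CSN libraries share their number with a control-cell library.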
